A study of Homo sapiens with 6 samples.

Results

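The 10 genes described here encode factors that set and keep B cell identity: PAX5, EBF1, POU2AF1, POU2F2, SPIB, SPI1, IRF8, BACH2, IKZF1 and IKZF3. They were chosen by name, and every probe set that the platform annotation assigns to 1 of them alone was kept, which gave 33 of the 54613 probe sets tested and 10 of the 19775 genes named there. Expression was measured on HG-U133 Plus 2.0 arrays in BL2 cells, an established human line of Burkitt lymphoma, a tumour of germinal-centre B cells. The cells were kept in complete RPMI and electroporated with scrambled siRNA, in 3 samples, or with siRNA directed at LEF1, also in 3, so electroporation and exposure to siRNA were shared by both groups. The labels name 3 batches, and every batch has 1 array per group. The design text calls the samples biological replicates and says no more of their source, so p-values measure the spread between these arrays. It also states that 4 siRNAs were pooled, read here as those directed at LEF1. What a batch stands for and the time between electroporation and harvest were not given in the sources used here. All values come from 1 cell line, and because the 4 siRNAs were pooled, effects of a single siRNA on other transcripts cannot be told apart from those of lowering LEF1.

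Values are log2 expression, differences are LEF1 siRNA minus scrambled siRNA on the log2 scale, and an error after ± is the SD of 3 arrays. LEF1, a DNA-binding partner of beta-catenin, read 11.09, 10.58 and 11.45 with scrambled siRNA in batches 1, 2 and 3 at its brightest probe set (221558_s_at). With LEF1 siRNA the same probe set read 8.21, 8.09 and 8.67, so the 3 knock-down arrays lay below all 3 controls (difference -2.71, limma adjusted p = 0.0213 without block). The size of the fall depended on the probe set: 210948_s_at fell by 1.84 (limma adjusted p = 0.00418 without block), and 221557_s_at differed by -0.29 (0.284 without block and 0.00695 with batch as block), both with no overlap of the groups. The B cell markers MS4A1, CD79A, CD79B, BLNK and CD22 read 13.64, 12.01, 11.56, 11.29 and 10.32 on average over the arrays. In contrast CR2, a complement receptor of mature B cells, read 6.62, below the median of 6.91 over all probe sets. FCER2, also in this list, was dim too, at 7.11, not far above that median. Summarised as the mean level of its genes, the B cell list of 7 measured genes lay between 10.21 and 10.40 with scrambled siRNA and between 10.36 and 10.44 with LEF1 siRNA. The 10 T and NK cell markers ran from 5.83 for TRAT1 to 7.32 for CD4, the 8 myeloid markers from 6.15 for S100A8 to 7.03 for ITGAM, and the 5 epithelial markers from 6.14 for EPCAM to 7.03 for KRT8. Of these genes 1 passed with batch as block, where 8.43% of all genes did at their brightest probe set. It was NCAM1, an NK cell adhesion gene, which went from 7.42 ± 0.11 to 7.18 ± 0.11 (SD, n = 3; limma adjusted p = 0.0188 with batch as block and 0.444 without). NCAM1 did not pass without batch 1 (limma adjusted p = 0.0783) or batch 2 (0.067). Of the 7 plasma cell markers JCHAIN was the highest, at 13.33, and XBP1 the lowest, close to the median of all probe sets. In whole cultures, fewer cells that express a gene and less of its RNA per cell cannot be told apart.

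B cell commitment runs through a network in which EBF1 and PAX5 turn on B cell genes and hold other lineages off. The ETS factors SPI1 (PU.1) and SPIB pair with IRF8 on composite DNA sites, and POU2F2 (OCT-2) works with its B cell co-activator POU2AF1 (OCA-B) on the octamer of immunoglobulin promoters. BACH2 represses the plasma cell programme, while the zinc finger proteins IKZF1 (Ikaros) and IKZF3 (Aiolos) shape lymphocyte chromatin and silence genes of the precursor stage. LEF1 itself is best known in this lineage for its role in B cell precursors.

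With LEF1 lowered, the differences at the probe sets of the 10 factors lay on both sides of 0, most of them without a call. Across the 33 probe sets the difference ran from -0.24 to 0.35, and the farthest from 0 was a 1.27-fold rise of POU2F2. In the limma fit without block 0 of 33 probe sets passed the adjusted threshold of 0.05, where 0.0183% of all probe sets did, and 3 of 33 had an unadjusted p under it, as did 7.84% of all probe sets. With batch as block 4 passed, where 6.09% of all probe sets did. Of these, 2 probe sets of POU2F2 rose, against a background of 4.58% called higher, and 1 each of EBF1 and BACH2 fell, against 1.51% called lower. The members were bright: 29 of the 33 lay above the median level. When only probe sets above that level were tested, 12.7% of them were called, with the same 2 rises and 2 falls of members. The count of 4 changed when a batch was left out, which leaves 4 arrays and 1 residual degree of freedom. Leaving out batch 1 gave 2 rises and 5 falls (7.1% of all probe sets called in either direction). Leaving out batch 2 gave 1 rise and 0 falls (2.58%), and leaving out batch 3 gave 3 rises and 0 falls (6.64%). Only POU2F2 228343_at passed in each of these fits. The median difference was -0.00032 over the 33 probe sets and 0.011 over all probe sets. The median size of the difference, without its sign, was 0.115 over the 33 and 0.0548 over all, dim probe sets included. The sign was the same in all 3 batches at 19 of the 33 (12 up and 7 down), where 36.5% of all probe sets had 1 sign throughout. The groups did not overlap at 4 of the 33, where 12.5% of all probe sets were free of overlap. Scaling to the poly-A spike-ins lowered every difference by 1 amount, so that the overall median became -0.11. On that scale 1 member probe set was called higher and 13 lower, where 16.1% of all were called, 1.78% higher and 14.3% lower. The 13 were 4 probe sets of IKZF1, 2 each of EBF1, POU2AF1 and IKZF3, and 1 each of PAX5, SPIB and BACH2.

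**Figure D1:**
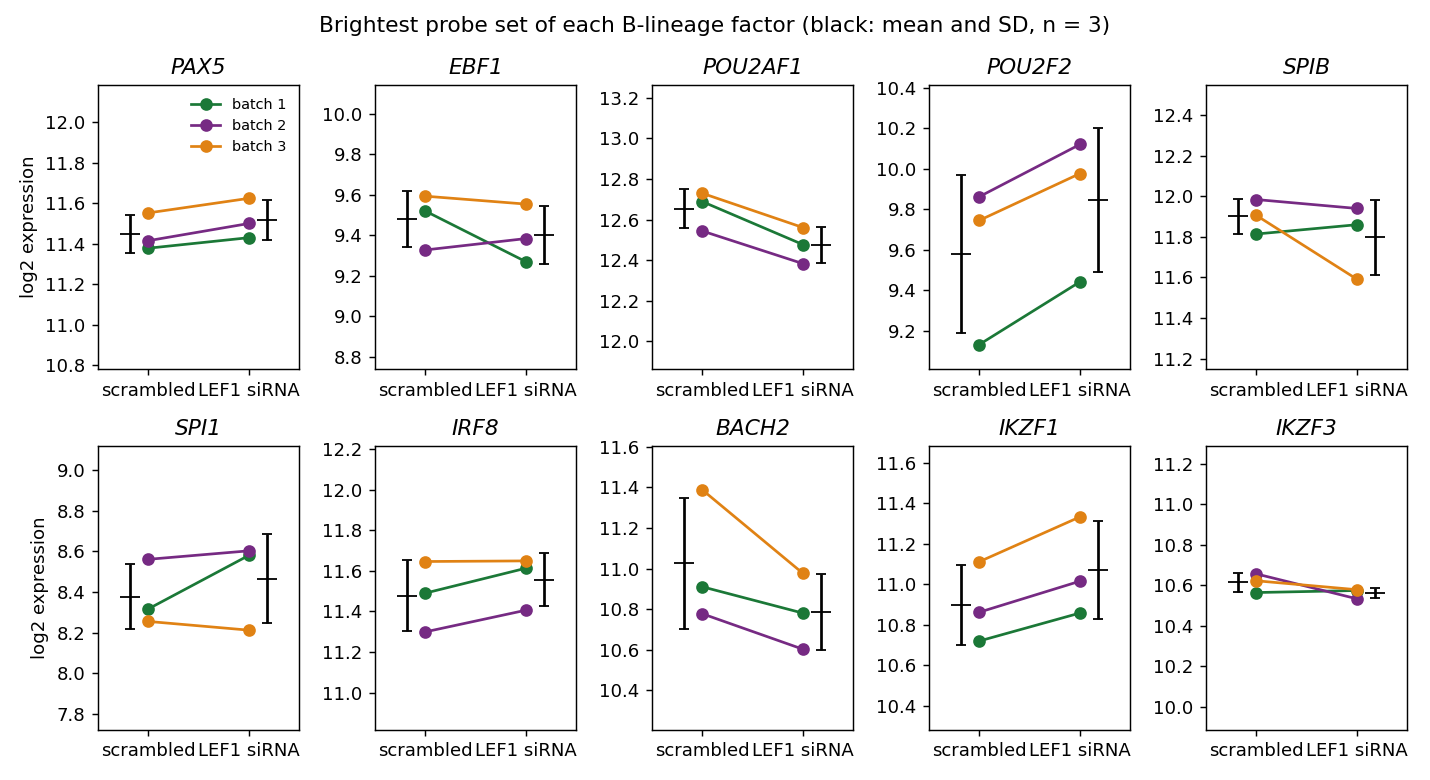
Log2 expression of the brightest probe set of each of the 10 factors on each array (points, joined within a batch), with the group mean and SD (black, n = 3). Every panel spans the same height on the log2 axis, and the lines of POU2F2 lie farther apart between batches than they rise within one.

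**Figure D2:**
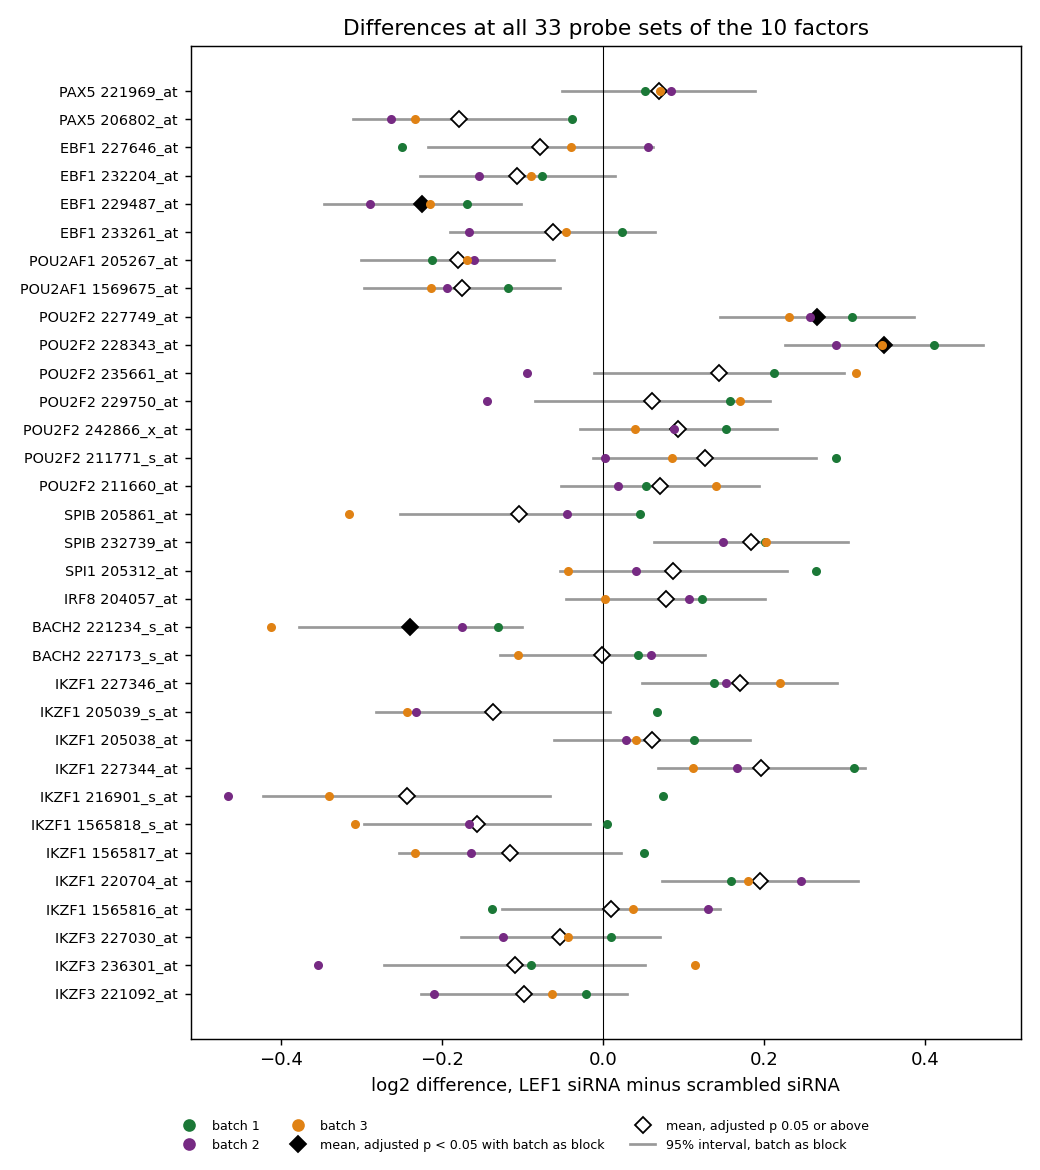
Difference in each batch (coloured points), mean difference (diamonds) and its 95% interval from the fit with batch as block (grey) at all 33 probe sets, on a log2 axis. The 4 filled diamonds are the probe sets that passed with batch as block: 2 of POU2F2, above 0, and 1 each of EBF1 and BACH2, below 0.

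The stretch of 250 bases before the annotated transcription start is shown for the genes with a called probe set and for IKZF1. The IKZF1 window was picked for its TCF/LEF match, the only one among the member windows, which 12.0% of all windows have. The windows of PAX5 and SPIB, whose probe sets ran in opposite directions like those of IKZF1, and of IRF8 are not shown. Sequences are from RefSeq on GRCh38.p14, 5′ to 3′ on the strand of the gene, and capitals mark a match to a searched motif. The EBF1 window is chr5:159097957-159098206 on the minus strand, that of POU2F2 chr19:42132447-42132696 on the minus strand, that of BACH2 chr6:90296844-90297093 on the minus strand, and the IKZF1 window shown, which begins downstream of the other 2 IKZF1 starts in the table, chr7:50318798-50319047 on the plus strand. It is the only IKZF1 window with a TCF/LEF match and does not stand for the windows of the other 2 starts, which have none.
EBF1: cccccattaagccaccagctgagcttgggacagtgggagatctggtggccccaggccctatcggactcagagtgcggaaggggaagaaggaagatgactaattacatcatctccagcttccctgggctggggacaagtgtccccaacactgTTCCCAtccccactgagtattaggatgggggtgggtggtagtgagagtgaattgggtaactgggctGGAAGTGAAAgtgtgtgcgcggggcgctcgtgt
POU2F2: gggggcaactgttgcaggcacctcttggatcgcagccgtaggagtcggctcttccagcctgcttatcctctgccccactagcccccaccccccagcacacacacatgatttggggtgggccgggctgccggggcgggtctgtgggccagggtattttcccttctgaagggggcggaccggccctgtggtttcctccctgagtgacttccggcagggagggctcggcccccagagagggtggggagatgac
BACH2: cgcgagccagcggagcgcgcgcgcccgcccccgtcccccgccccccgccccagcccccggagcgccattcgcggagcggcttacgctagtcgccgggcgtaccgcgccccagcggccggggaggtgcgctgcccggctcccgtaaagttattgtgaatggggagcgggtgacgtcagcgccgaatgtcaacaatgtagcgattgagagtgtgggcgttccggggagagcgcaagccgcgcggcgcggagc
IKZF1: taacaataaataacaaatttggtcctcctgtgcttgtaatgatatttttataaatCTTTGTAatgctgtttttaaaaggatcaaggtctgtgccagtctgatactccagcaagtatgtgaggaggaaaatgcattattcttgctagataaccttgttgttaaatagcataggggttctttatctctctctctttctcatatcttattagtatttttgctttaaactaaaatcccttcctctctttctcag
The capitals in IKZF1 are CTTTGTA, 1 of the 4 spellings searched for the TCF/LEF motif (CTTTGAA or CTTTGAT or CTTTGTA or CTTTGTT), and those in EBF1 are a composite ETS and IRF motif, GGAAGTGAAA, and an Ikaros core read on the other strand.

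Each motif was searched on both strands in the 10 such windows that the table holds for 7 of the members (PAX5, EBF1, POU2F2, SPIB, IRF8, BACH2 and IKZF1), and its share was taken over all 35116 windows. POU2AF1, SPI1 and IKZF3 had no entry. The TCF/LEF motif was in 1 member window, the IKZF1 one above, and in 12.0% of all windows. The composite ETS and IRF motif, which is GGAA, any 2 bases and GAAA, was in 1 member window, that of EBF1, and in 2.41% of all. The EBF core, CCCNNGGG, which reads the same on both strands, was in the windows of SPIB and of another IKZF1 start and in 17.1% of all. The Ikaros core, TGGGAA, was in 4 member windows, of EBF1, IRF8 (2 overlapping windows, the same match) and IKZF1, and in 20.8% of all. Neither the octamer, ATTTGCAT, nor the PU.1 motif, GAGGAAGT, was in any of the 10, against 1.63% and 2.17% of all. A match is a stretch of letters, not a measured binding site.

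EBF1 and PAX5 stand at the head of the network. PAX5 read 11.38, 11.41 and 11.55 with scrambled siRNA and 11.43, 11.50 and 11.62 with LEF1 siRNA at its brightest probe set (221969_at). The pair in each batch differed by 0.05, 0.08 and 0.07, and the groups overlapped. The mean difference was 0.07 with a 95% interval from -0.05 to 0.19 with batch as block (limma adjusted p = 0.627). A dimmer PAX5 probe set (206802_at) ran the other way, from 7.34 ± 0.11 to 7.16 ± 0.10 (SD, n = 3), with all 3 LEF1 siRNA arrays below the controls (limma adjusted p = 0.122 with batch as block, and 0.0372 when batch 1 was left out).

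EBF1 lay lower with LEF1 siRNA at all 4 of its probe sets, by 0.06 to 0.22, and 1 of them passed. That probe set (229487_at) read 7.87, 7.88 and 7.89 with scrambled siRNA and 7.70, 7.59 and 7.67 with LEF1 siRNA. The 2 groups did not overlap, and the controls differed from each other by far less than from the knock-down arrays. It fell by 0.22 (95% interval -0.35 to -0.10; limma adjusted p = 0.0325 with batch as block and 0.252 without), and did not pass without batch 2 (limma adjusted p = 0.219) or batch 3 (0.0502). The brightest EBF1 probe set (227646_at) went from 9.48 ± 0.14 to 9.40 ± 0.14 (SD, n = 3), with batch differences of -0.25, 0.06 and -0.04 and an interval from -0.22 to 0.06. The 2 remaining ones differed by -0.11 and -0.06, the second at a level of 6.02, below the median of all probe sets.

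POU2F2 had the members' largest differences, and it rose at 2 probe sets while POU2AF1 read lower in every batch. The probe set 228343_at read 8.73, 9.60 and 8.98 with scrambled siRNA in batches 1, 2 and 3. With LEF1 siRNA it read 9.14, 9.89 and 9.33. Each knock-down array was above its own batch's control, but the groups overlapped, because batch 2 was high and batch 1 low in both. The rise of 0.35 had a 95% interval from 0.23 to 0.47 (limma adjusted p = 0.00249 with batch as block and 0.855 without), and this probe set passed with each batch left out in turn. The brightest one (227749_at) read 9.13, 9.86 and 9.75 with scrambled siRNA and 9.44, 10.12 and 9.98 with LEF1 siRNA. It rose by 0.27 (95% interval 0.15 to 0.39; limma adjusted p = 0.0116 with batch as block and 0.889 without). Some settings took the call away, leaving out batch 2 (limma adjusted p = 0.0590) and spike-in scaling (0.106). The other 5 POU2F2 probe sets differed by 0.06 to 0.14 and did not pass, and 3 of these turned below 0 under poly-A spike-in scaling. At 2 of them, 235661_at and 229750_at, the difference was positive in batches 1 and 3 and negative in batch 2, at -0.09 and -0.14.

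Between batches POU2F2 varied far more than between siRNAs. At 6 of its 7 probe sets the means of the 3 batches spanned 0.65 to 0.84, and each of these spans was larger than that of at least 99.4% of all probe sets. At 5 of these 6, both arrays of batch 1 lay below all 4 arrays of batches 2 and 3. The exception was 228343_at, where the batch 1 knock-down array lay above the batch 3 control. The seventh (211660_at), which read 7.30 ± 0.02 with scrambled siRNA, spanned only 0.08. BACH2 came next, with spans of 0.49 and 0.58. Over the 33 probe sets the median span was 0.24, against 0.12 for all probe sets, dim ones included. The span exceeded the size of the siRNA difference at 28 of the 33. What differed between the batches was not tested.

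**Figure D3:**
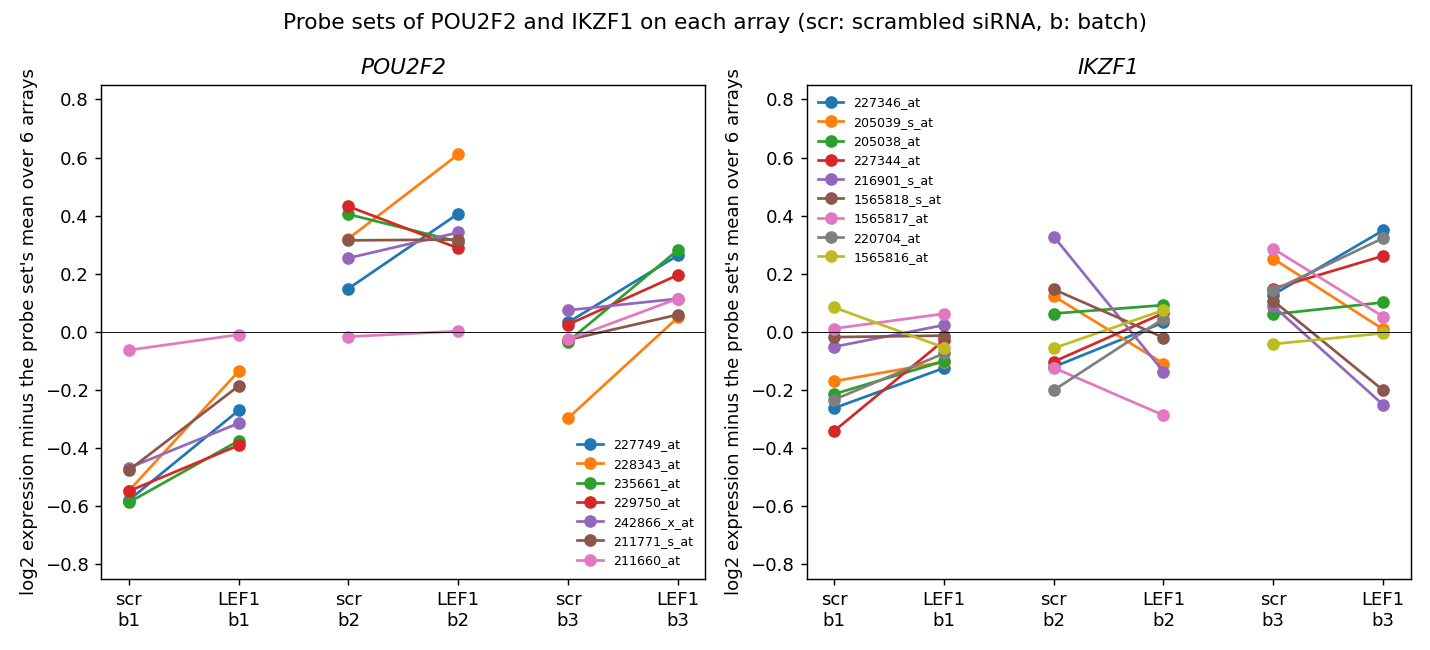
Log2 expression of each probe set of POU2F2 (left) and IKZF1 (right) on the 6 arrays, relative to that probe set's own mean, with lines joining the pair of a batch. At 5 of 7 POU2F2 probe sets both batch 1 arrays lie lowest, and the IKZF1 probe sets part in batches 2 and 3.

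**Figure D4:**
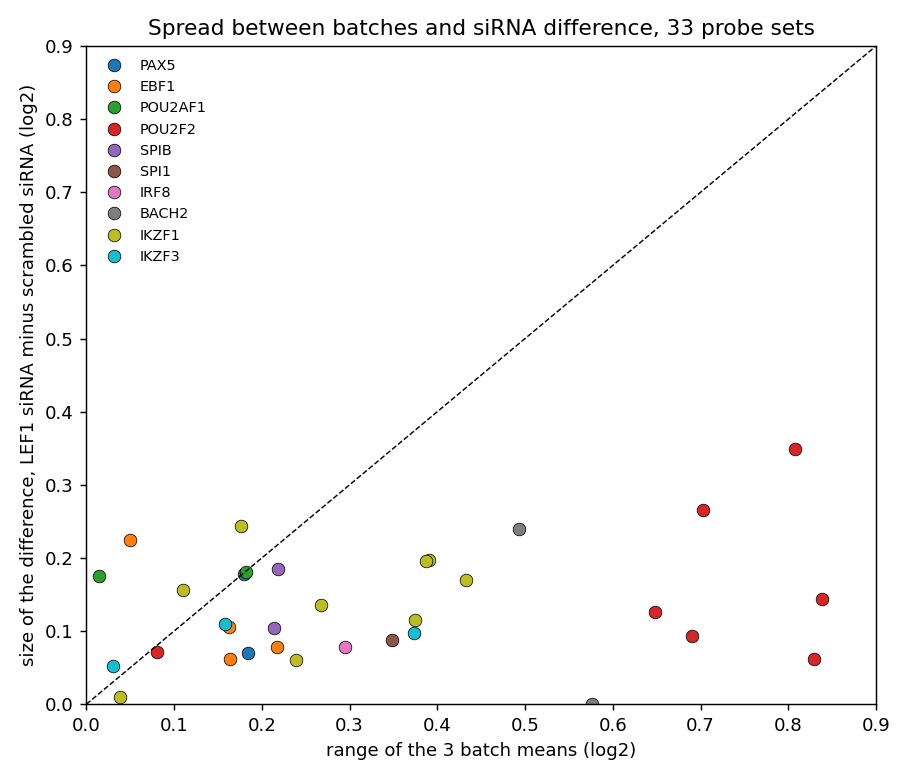
Size of the siRNA difference (y axis, log2) against the range of the 3 batch means (x axis, log2) for the 33 probe sets, coloured by gene, with a dashed line of equality. Of the 33 points, 28 lie below the line, and the 6 POU2F2 points at the right have ranges from 0.65 to 0.84.

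POU2AF1, the co-activator that POU2F2 recruits to the octamer, read 12.69, 12.54 and 12.73 with scrambled siRNA and 12.48, 12.38 and 12.56 with LEF1 siRNA at its brightest probe set (205267_at). The difference was close to even across batches, at -0.21, -0.16 and -0.17, and the highest knock-down array just exceeded the lowest control. It did not pass (mean -0.18, 95% interval -0.30 to -0.06; limma adjusted p = 0.0797 with batch as block). The dim probe set of this gene (1569675_at) went from 6.35 ± 0.02 to 6.17 ± 0.03 (SD, n = 3) with no overlap, below the median of all probe sets (limma adjusted p = 0.0947 with batch as block). Under poly-A spike-in scaling both were among the 13 called lower.

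Neither of the ETS factors nor IRF8 passed on the deposited scale. SPI1, which encodes PU.1, read 8.32, 8.56 and 8.25 with scrambled siRNA and 8.58, 8.60 and 8.21 with LEF1 siRNA. Its batch differences of 0.26, 0.04 and -0.04 did not share a sign, and the interval of the mean ran from -0.05 to 0.23. The brightest probe set of SPIB (205861_at) read 11.81, 11.98 and 11.91 with scrambled siRNA and 11.86, 11.94 and 11.59 with LEF1 siRNA. Only the knock-down array of batch 3 stood apart there, 0.31 below its control, and the interval of the mean difference was -0.25 to 0.04. Under poly-A spike-in scaling this probe set fell by 0.22 (limma adjusted p = 0.0411 with batch as block). The other SPIB probe set (232739_at) read higher in each batch, by 0.20, 0.15 and 0.20 (mean 0.18, 95% interval 0.06 to 0.30; limma adjusted p = 0.0731 with batch as block). IRF8, which pairs with both ETS factors, was measured by 1 probe set, at 11.48 ± 0.17 and 11.56 ± 0.13 (SD, n = 3). Its interval was -0.05 to 0.20 (limma adjusted p = 0.584 with batch as block).

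BACH2, a repressor that delays plasma cell differentiation, fell at its brighter probe set and not at the other. The brighter (221234_s_at) read 10.91, 10.78 and 11.39 with scrambled siRNA and 10.78, 10.60 and 10.98 with LEF1 siRNA. Each knock-down array was below its batch's control, and the gap in batch 3 was the widest, at -0.41 against -0.13 and -0.18. The mean fall was 0.24 (95% interval -0.38 to -0.10; limma adjusted p = 0.0430 with batch as block and 0.837 without). It no longer passed without batch 2 (limma adjusted p = 0.0934), without batch 3, where the difference was -0.15 (0.304), or with trended and robust variance estimates (0.0748). The second probe set (227173_s_at) read 9.22, 9.02 and 9.68 with scrambled siRNA and 9.26, 9.08 and 9.58 with LEF1 siRNA, a mean difference of -0.00 with an interval from -0.13 to 0.13.

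The 9 probe sets of IKZF1 split by direction, with 1565816_at, the dimmest, at 0.01. The brightest (227346_at) read 10.72, 10.86 and 11.11 with scrambled siRNA and 10.86, 11.02 and 11.33 with LEF1 siRNA, higher in each batch by 0.14, 0.15 and 0.22. Probe sets 227344_at, 220704_at and 205038_at were also higher in every batch, with mean differences of 0.20, 0.20 and 0.06, the last of which turned to -0.059 under poly-A spike-in scaling. Against these, 205039_s_at, 216901_s_at, 1565818_s_at and 1565817_at were 0.12 to 0.24 lower on average. In batch 1 these 4 were also higher with LEF1 siRNA, by 0.01 to 0.07, and in batches 2 and 3 they were lower, by 0.16 to 0.47. Probe set 216901_s_at shows it most, at 8.79, 9.17 and 8.93 with scrambled siRNA and 8.86, 8.70 and 8.59 with LEF1 siRNA. On the deposited scale none of the 9 passed with batch as block on all 6 arrays (lowest limma adjusted p = 0.0588, for 220704_at, which lies near the median level). With other scalings of the same arrays 216901_s_at fell, under quantile normalization (limma adjusted p = 0.0422) and with the spike-ins as reference (0.0041), and the latter also called the other 3 of those 4 lower. On the 4 arrays of batches 2 and 3, 216901_s_at fell by 0.40 (limma adjusted p = 0.000255) and 205039_s_at by 0.24 (0.0493), where 7.1% of all probe sets were called, and on the 4 arrays of batches 1 and 2, 227344_at rose by 0.24 (0.0370), where 6.64% were. Each of those fits has 1 residual degree of freedom.

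The ratio of 3′ to 5′ signal of the ACTB control transcript, a measure of RNA and cRNA integrity, differed between the groups. The log2 difference of its 3′ and 5′ control probe sets was 0.07, -0.03 and 0.10 with scrambled siRNA and 0.18, 0.30 and 0.22 with LEF1 siRNA. For GAPDH it was 0.04, 0.06 and 0.10 in both groups alike. Its part in the opposed IKZF1 probe sets was not tested.

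IKZF3, the close relative of IKZF1 in mature B cells, read lower on average at its 3 probe sets and passed at none on the deposited scale. Its brightest probe set (227030_at) read 10.56, 10.66 and 10.62 with scrambled siRNA and 10.57, 10.53 and 10.58 with LEF1 siRNA, and all 6 arrays lay close together. The interval of the mean difference was -0.18 to 0.07 (limma adjusted p = 0.756 with batch as block). The other 2 differed by -0.11 and -0.10, and 236301_at changed sign between batches, at -0.09, -0.35 and 0.11. Under poly-A spike-in scaling 236301_at and 221092_at fell (limma adjusted p = 0.036 and 0.0294 with batch as block).

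Genes around the 10 factors were followed in 8 lists of 78 different measured genes, each read at its brightest probe set. The lists were chosen with earlier results of these data known, so the counts below do not test the factors' targets as a group. The list genes were bright, with a median level of 8.36 at the brightest probe set of each. The median of all probe sets, not only the brightest of each gene, was 6.91. Without block 0 of the 78 passed, where 0.0253% of all genes did. With batch as block 13 rose and 5 fell, where 8.43% of all genes were called, 6.73% higher and 1.7% lower. Their median difference was 0.05, beside 0.02 for all genes. Poly-A spike-in scaling turned this to 5 rises and 14 falls, where 1.78% and 14.3% of all probe sets were called. Leaving out batch 1 left 6 rises and 5 falls, where 7.1% of all probe sets were called in either direction. These last shares are over all probe sets and not, like the 8.43%, over the brightest probe set of each gene.

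Among 12 measured paralogues of the members only BACH1 passed, higher by 0.26 (limma adjusted p = 0.0247 with batch as block), and the list's median was 0.03. BACH1 did not pass under quantile normalization (limma adjusted p = 0.0597), cyclic loess (0.0529) or poly-A spike-in scaling (0.130), or without batch 1 (0.162) or batch 2 (0.0942). Of 17 other transcription factors of B cell development 2 rose and 1 fell, with a list median of 0.05. MEF2C, a factor of B cell receptor responses, fell from 9.78 ± 0.13 to 9.37 ± 0.14 (SD, n = 3). The fall was 0.40, 0.42 and 0.39 in the 3 batches (limma adjusted p = 0.000813 with batch as block and 0.225 without). The 2 dimmer MEF2C probe sets passed in the same direction. TCF12, an E protein, rose by 0.40 from 9.68 ± 0.09, with no overlap of the groups (limma adjusted p = 0.00172 with batch as block), while its 3 dimmer probe sets did not pass. BCL11A, a zinc finger factor needed for B cell formation, rose by 0.29 (limma adjusted p = 0.0134 with batch as block), though not under poly-A spike-in scaling (0.0798) or without batch 1 (0.0786).

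Of 14 genes that PAX5 or EBF1 activates 4 rose and 1 fell, with a median of 0.12. The fall was that of IGLL1, a surrogate light chain gene, by 1.19 (limma adjusted p = 4.95e-07 with batch as block and 0.107 without). CD72, an inhibitory co-receptor, rose from 8.86 ± 0.17 to 9.23 ± 0.17 (SD, n = 3; limma adjusted p = 0.00190 with batch as block) and the adaptor gene NEDD9 rose by 0.42 (0.00384) at its brightest probe set alone of 5. CIITA and BCAR3 rose by 0.30 and 0.23, but lost the call under each of the 4 alternative scalings (smallest limma adjusted p = 0.0684 for CIITA and 0.0682 for BCAR3). CD79A, CD79B and CD22 differed by -0.07, -0.11 and -0.03. Of 10 genes that PAX5 represses, 1 rose, the integrin gene ITGAL by 0.24 (limma adjusted p = 0.0260 with batch as block), and the median was 0.04. ITGAL did not pass under poly-A spike-in scaling (limma adjusted p = 0.179) or without batch 2 (0.223).

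Targets of the octamer and ETS factors included genes that rose. Of 7 targets of POU2F2 and POU2AF1, 1 rose, the B cell receptor kinase gene BTK, and the median was 0.10. BTK read 10.26, 10.16 and 10.37 with scrambled siRNA and 10.56, 10.58 and 10.69 with LEF1 siRNA, with no overlap (difference 0.35, limma adjusted p = 0.00252 with batch as block and 0.192 without). Of 11 targets of SPI1, SPIB and IRF8, 3 rose and 1 fell, with a median of 0.13. BTK is in this list too, and the others that rose were FCGR2B, an inhibitory Fc receptor gene, by 0.30 (limma adjusted p = 0.00573 with batch as block) and the co-stimulatory receptor gene CD40 by 0.39 (0.0108). The call of FCGR2B was lost under poly-A spike-in scaling (limma adjusted p = 0.0552) and that of CD40 without batch 1 (0.0544). IL7R, a precursor cytokine receptor gene, fell by 0.34 (limma adjusted p = 0.0155 with batch as block, and 0.113 without batch 1).

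Of 7 genes that BACH2 represses 2 rose, HMOX1, which encodes a haem-degrading enzyme, by 0.24 and the autophagy receptor gene SQSTM1 by 0.29 (limma adjusted p = 0.0277 and 0.0314 with batch as block), and the median was 0.07. HMOX1 did not pass under quantile normalization (limma adjusted p = 0.0737), cyclic loess (0.0576) or poly-A spike-in scaling (0.193), nor without batch 1 (0.0694) or batch 2 (0.199). SQSTM1, called at 1 of its 5 probe sets, lost the call when array medians were set equal (limma adjusted p = 0.0694), with spike-in scaling (0.0990) and without batch 1 (0.221). PRDM1, the plasma cell regulator that BACH2 represses, differed by 0.05 (limma adjusted p = 0.833 with batch as block). Of 8 genes that IKZF1 or IKZF3 represses 3 fell and 0 rose, with a median of -0.11. Besides IGLL1 these were DNTT, which adds bases at antigen receptor joints, by 0.62 and the cyclin gene CCND3 by 0.47 (limma adjusted p = 9.68e-05 and 0.00052 with batch as block, 0.179 and 0.481 without). The same 3 kept their direction and their call under the 4 other scalings and with each batch left out. A dim second probe set of CCND3 differed by 0.05, and VPREB1, the partner of IGLL1 in the surrogate light chain, differed by -0.07.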

How the data were processed

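The authors deposited 1 log2 expression value per probe set for 6 arrays, from total RNA amplified by 3′ in vitro transcription, as the labels' protocols state, so mainly transcript ends are read. Background correction, normalization and summarisation were not given in the sources used here, and the log2 scale was read from the values. Array medians ran from 6.89 to 6.96, and precision is limited by having 6 arrays.

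The 62 control probe sets were left out, which kept 54613. Gene names came from the platform annotation, checked against RefSeq of GRCh38.p14 by gene ID, which changed 0 symbols: 41091 probe sets name 1 gene, 1801 several and 11721 none here. The model was that of limma 3.58.1 (lmFit, eBayes; R 4.3.3), without block and with batch as block, with Benjamini-Hochberg adjustment over all probe sets at 0.05, two-sided. Both were tested on simulated data, where changes of 0.5 log2 were recovered at 53% without block and 100% with batch as block. False calls there were 0 of 151 and 10 of 210. Every member difference was smaller than 0.5 log2 in size, and recovery at such sizes was not simulated. The batch label pairs the arrays: deviations from group means correlated at 0.477, 0.493 and 0.621 within batches 1, 2 and 3, across probe sets. Residual degrees of freedom were 4 and 2, and prior ones 4.07 and 12.0. Alternatives covered the block, 4 scalings, dim probe sets, 1 probe set per gene, control probe sets, eBayes settings and leaving out arrays or batches. Poly-A scaling used 24 control probe sets. Every member was named at every probe set, and from each list up to 3 called genes with the smallest p, with further genes of small counts chosen after their values were seen. The members and lists were chosen with earlier results of these data known. Motifs were searched in Python 3.11.15 and plots made by matplotlib 3.10.9.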

Additional observations from a re-analysis of the deposited data

How the results depend on the processing

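The pairing by batch decided the calls: the replicate block took the members from 0 to 2 rises and 2 falls, and the list genes from 0 to 13 rises and 5 falls. With batch as block, poly-A spike-in scaling gave 1 rise and 13 falls of members, and 5 rises and 14 falls of list genes (1 fall without block). Testing only the brightest probe set of each gene, which leaves 10 member probe sets, gave 1 rise and 1 fall, where 9.86% of those tested were called. Trended, robust eBayes gave 2 rises and 1 fall of members, where 5.38% of all probe sets were called. Leaving out a batch gave 1 to 3 rises and 0 to 5 falls of members, and 6 to 19 rises of list genes. In these fits 2.58% to 7.1% of all probe sets were called in either direction. Without block, no member passed under any alternative run. Under poly-A scaling uncalled differences turned to -0.050 for PAX5 221969_at, -0.058 for POU2F2 229750_at, -0.026 for 242866_x_at and -0.049 for 211660_at, -0.032 for SPI1, -0.042 for IRF8, and -0.059 and -0.11 for IKZF1 205038_at and 1565816_at, the last also to -0.013 with equal medians. Leaving out arrays or batches took uncalled differences across 0: from -0.15 to 0.0086 for EBF1 227646_at, -0.13 to 0.0022 for EBF1 233261_at, -0.11 to 0.38, -0.20 to 0.29, -0.12 to 0.27 and -0.080 to 0.32 for POU2F2 235661_at, 229750_at, 242866_x_at and 211771_s_at, -0.18 to 0.0013 for SPIB 205861_at, -0.00055 to 0.21 for SPI1, -0.012 to 0.16 for IRF8, -0.14 to 0.19 for BACH2 227173_s_at, -0.031 to 0.13 and -0.051 to 0.084 for IKZF1 205038_at and 1565816_at, and -0.22 to 0.013 for IKZF3 236301_at. The causes were not tested. The pseudocount planned for linear values was not run, since the values are log2. Signal over background was not measured here, so how far it limits the 4 member probe sets below the median level was not tested.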
